A study of Mus musculus with 7 samples.

Results

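The homeostatic signature of microglia was examined as a list of 33 genes, taken by gene symbol from the 50686 genes quantified in each library. The libraries came from Bodipy+ microglia of 4 young (3 to 4 months) and 3 old (21 to 22 months) C57BL/6 male mice, and all 7 mice had undergone transient middle cerebral artery occlusion 4 days before the sort. Bodipy is a dye for neutral lipids, so both ages were represented by cells rich in lipid droplets, gated as CD11b+ and CD45 low from the forebrain without cerebellum and olfactory bulbs. According to the labels the mice had no drug treatment. Sham-operated mice were not analysed here, and each library was made from 1 mouse. Old mice are named 2posI, 3posI and 4posI and young mice 14C, 18C, 23C and 29C, after their labels. The comparison asks how much of the resting identity is kept in lipid-laden microglia of old as against young mice after stroke. All 33 symbols were in the files. Of these, 32 are autosomal and entered the test over 17559 genes, and Gpr34, on chromosome X, was taken from a fit in which the sex chromosomes and the mitochondrial genome were kept.

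Microglia are the resident macrophages of the brain, and in the healthy adult they survey the tissue under the influence of TGF-beta and colony-stimulating factor 1. In that state they transcribe a set of genes, part of which circulating monocytes hardly use. The set includes surface receptors, secreted matrix proteins and regulators of membrane and actin. When microglia respond to injury, to dying neurons or to myelin debris, this set is commonly transcribed less while phagocytic and lipid-handling genes are transcribed more. The 33 genes hold 11 surface receptors and membrane proteins, 2 transporters, 5 secreted and matrix proteins, 7 regulators of membrane shape, actin or GTPases, 4 genes of signalling and transcription, 2 lipid enzymes and 2 other proteins. They lie on 17 chromosomes. Tmem119 and Selplg on chromosome 5 are the nearest pair, 18020 bases apart, and the next nearest, Tmem119 and Crybb1, are 1524144 bases apart.

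Total expected counts per library were between 36574083 and 53002386, and a member's own expected count ranged from 143 (Upk1b) to 548256 (Cst3). The reads carry no molecular identifiers that the labels or methods name. The size of a count by itself bears on counting error only, while the SEs and p-values given below include the spread between mice. The identity of the sorted cells was checked with 11 microglia markers, 4 of which (Tmem119, Fcrls, Gpr34, Olfml3) are also members. All were counted in every library, and the lowest value was that of Sall1, a transcription factor of microglia, at 48.0 CPM. CPM is the count relative to the library total after scaling by the TMM method. The sum of the 11 markers was 21990 to 33040 CPM in 6 libraries and 11330 CPM in old mouse 3posI. The same mouse had 2801 CPM over 8 monocyte markers, against 183.5 to 482.3 CPM in the other 6 libraries, and 1644 CPM over 10 markers of border-associated macrophages, against 192.3 to 665.5 CPM. Results are therefore given with and without 3posI. In bulk libraries, fewer microglia among the sorted cells and less RNA of a gene per microglial cell cannot be told apart.

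In TPM, which is scaled by gene length as well as by library total, Cst3, cystatin C, a secreted inhibitor of cysteine proteases, had the highest mean over the 7 libraries, at 15133 TPM. It was followed by the scavenger receptor Fcrls at 2318 TPM, the matricellular glycoprotein Sparc at 1594 TPM, the P-selectin ligand Selplg at 1106 TPM and the marker Tmem119 at 1024 TPM. Cst3 stood clear of all others, since its lowest library lay above the highest library of Fcrls. The next ranks did not separate beyond their spread, as the 7 values of Sparc, Selplg and Tmem119 interleaved. At the other end were Bank1 at 3.77 TPM, Sall3 at 8.27 TPM and Csmd3 at 8.62 TPM. Bank1 encodes a scaffold best known from B cell receptor signalling, Sall3 a zinc finger transcription factor and Csmd3 a very large CUB and sushi domain protein.

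**Figure D1:**
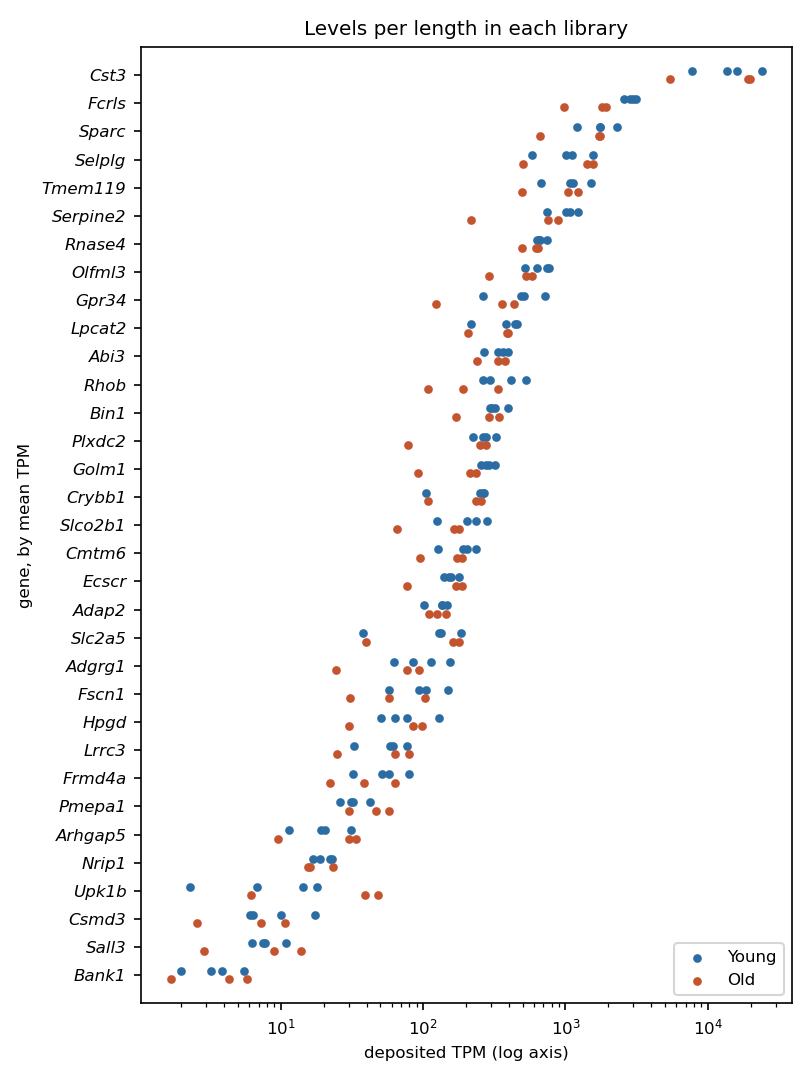
Deposited TPM (log axis) of the 33 homeostatic genes, ordered by their mean, with 1 point for each young (blue) and old (orange) library. Cst3 is highest with a mean of 15133 TPM and Bank1 lowest with 3.77 TPM, and the lowest old point of each gene belongs to mouse 3posI.

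None of the 32 homeostatic genes tested passed an adjusted p of 0.05 between old and young mice by edgeR's quasi-likelihood test (smallest adjusted p = 0.167, Pmepa1). Over all 17559 genes, 141 passed (0.803%). At an unadjusted p under 0.05 there were 2 members, Pmepa1 with a higher and Fcrls with a lower mean in old mice, against 18.9% of all genes. The ages did not overlap in 2 members, Fcrls and Golm1, both lower in every old library than in every young one. Among all genes, 17.7% did not overlap and 9.07% did so with old mice lower. The log2 fold change of old minus young was below 0 in 21 of the 32 members (65.6%) and above 0 in 11, against 51.2% below 0 over all genes, and its median was -0.09, against -0.01 over all genes. In 22 of the 32 its size was under 0.5. DESeq2 called 1 member, Fcrls, at an adjusted p of 0.0394, where it called 9.07% of the genes to which it gave an adjusted p.

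Among the surface receptors, 8 of 11 had a lower mean in old mice, and the median log2 fold change was -0.17. Fcrls, an Fc receptor-like scavenger receptor of mouse microglia (chr3:87250758-87263738, minus strand, GRCm38), was counted at 3477, 3747, 4178 and 4212 CPM in young mice 14C, 18C, 23C and 29C. In old mice 2posI, 3posI and 4posI it had 3089.9, 1550.5 and 2514 CPM. Every old library was below every young one. The 4 young libraries lay close together (3903 ± 354 CPM, SD, n = 4) and the 3 old ones were more spread (2385 ± 778 CPM, SD, n = 3). The old mean was 1.64-fold lower, and the edgeR estimate on the log2 scale was -0.71 ± 0.25 (SE, adjusted p = 0.176).

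Tmem119, which marks resident microglia (chr5:113793729-113800516), had 1670 (14C), 2269 (18C), 1027 (23C) and 1852 CPM (29C) in young mice. In old mice it had 1837 (2posI), 850.3 (3posI) and 1873 CPM (4posI). The ages overlapped, and in each age 1 library was well below the rest. The log2 fold change was -0.17 ± 0.34 (adjusted p = 0.828). Selplg, its neighbour on the chromosome, which encodes PSGL-1, had 1362, 1884, 702.7 and 1338 CPM in young mice and 1974, 672.4 and 1839 CPM in old mice, in the same order of libraries. Here 2posI was highest and 3posI lowest of all 7, and the log2 fold change was 0.18 ± 0.41 (adjusted p = 0.848).

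Gpr34, a receptor for lysophosphatidylserine, was counted at 630.4 (14C), 903.1 (18C), 338.7 (23C) and 709.7 CPM (29C) in young mice, and at 542.6 (2posI), 177.6 (3posI) and 552.5 CPM (4posI) in old mice. Both 2posI and 4posI were within the range of the young mice, and the log2 fold change was -0.61 ± 0.43 (adjusted p = 0.481). Adgrg1, the adhesion receptor GPR56, had 257.6, 341.7, 127.3 and 201.9 CPM in young mice 14C, 18C, 23C and 29C and 211.0, 66.1 and 213.1 CPM in old mice 2posI, 3posI and 4posI. Again 3posI alone lay outside the young range, and the log2 fold change was -0.51 ± 0.44 (adjusted p = 0.564). Plxdc2, a plexin domain transmembrane protein, had 471.8, 664.8, 575.3 and 583.4 CPM in young mice and 526.0, 166.4 and 512.1 CPM in old mice, in the same order. In this gene 14C was the lowest young library, 3posI was again the only old library outside the young range, and the log2 fold change was -0.52 ± 0.36 (adjusted p = 0.467).

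Upk1b, a tetraspanin of the uroplakin family (chr16:38773184-38800328), differed most between libraries. It had 17.6 (14C), 21.4 (18C), 2.80 (23C) and 8.97 CPM (29C) in young mice, and 54.6 (2posI), 8.38 (3posI) and 58.0 CPM (4posI) in old mice. The highest library was 20.7-fold above the lowest, 2posI and 4posI were above all young mice, and 3posI was among the young values. The old mean was 3.18-fold higher, a log2 difference of 1.67 ± 0.74 that did not pass (adjusted p = 0.266, edgeR). The other 4 receptors were closer to 0. Ecscr, a sialomucin-type protein also made by endothelial cells, had a log2 fold change of -0.03, Csmd3 of -0.08, Lrrc3, a leucine-rich repeat protein, of 0.04, and Cmtm6, which stabilizes PD-L1 at the cell surface, of -0.23. In Ecscr, 2posI and 4posI (138.9 and 130.5 CPM) were above and 3posI (59.6 CPM) below all young mice (98.5 to 122.3 CPM).

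The transporters went in opposite directions on average. Slco2b1, an organic anion transporter, had 710.7 (14C), 834.0 (18C), 378.1 (23C) and 659.7 CPM (29C) in young mice and 565.2 (2posI), 217.0 (3posI) and 527.0 CPM (4posI) in old mice. Both 2posI and 4posI were between 23C and the other young mice, and the log2 fold change was -0.57 ± 0.36 (adjusted p = 0.433). Slc2a5, the fructose transporter GLUT5, ranged from 58.9 (23C) to 276.2 CPM (18C) in young mice and from 73.4 (3posI) to 305.2 CPM (2posI) in the old ones, a log2 difference of 0.20 ± 0.56.

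Of the 5 secreted and matrix genes, 4 had a lower mean in old mice, and the ages overlapped in all 5. Cst3 (chr2:148871722-148875692) was counted at 8195 (14C), 12266 (18C), 3906 (23C) and 7575 CPM (29C) in young mice and at 11870.3 (2posI), 3281 (3posI) and 10472 CPM (4posI) in old mice. The other old libraries were 3.41-fold above 3posI on average, while the log2 fold change between ages was 0.10 ± 0.48 (adjusted p = 0.933). Sparc had 1993, 2525, 1332 and 2146 CPM in young mice 14C, 18C, 23C and 29C and 2406, 838.7 and 1987 CPM in old mice 2posI, 3posI and 4posI. The low libraries were again 23C and 3posI, and the log2 fold change was -0.20 ± 0.36 (adjusted p = 0.802).

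Olfml3, a secreted olfactomedin domain glycoprotein, had 1802 (14C), 2137 (18C), 1485 (23C) and 2286 CPM (29C) in young mice and 1733 (2posI), 914.9 (3posI) and 1620 CPM (4posI) in old mice. Leaving 23C aside, all old libraries were below all young ones, and the log2 fold change was -0.44 ± 0.26 (adjusted p = 0.392). Serpine2, the protease inhibitor nexin-1, had 1105, 1503, 1399 and 1852 CPM in young mice and 1242, 360.0 and 1235 CPM in old mice, in the same order. In contrast to most members, 23C was not its lowest young library, and the log2 fold change was -0.63 ± 0.40 (adjusted p = 0.425). Rnase4, a secreted ribonuclease, varied least of all 33 genes. It stayed between 697.1 and 763.9 CPM in young mice, a coefficient of variation of 4.28%, and had 757.1 (2posI), 586.8 (3posI) and 670.3 CPM (4posI) in old mice.

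**Figure D2:**
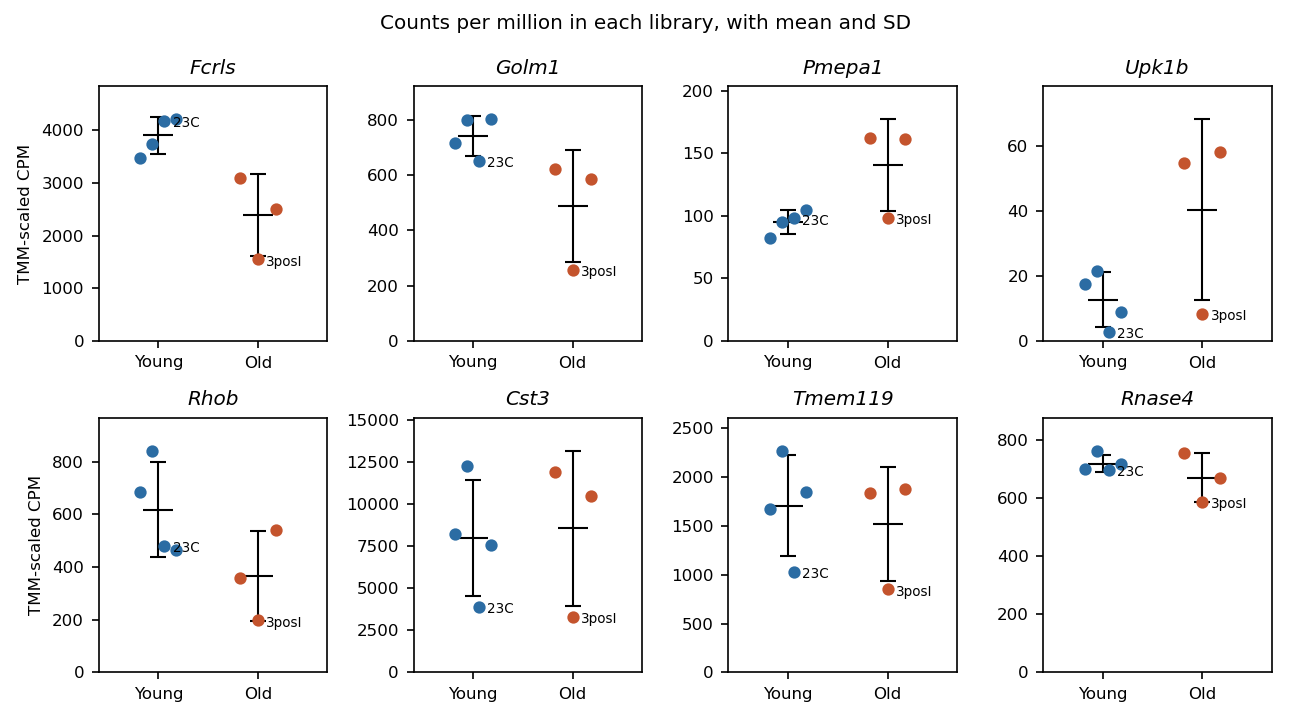
TMM-scaled CPM of 8 homeostatic genes in each library, with 1 point for each mouse (blue young, orange old), a black line at the group mean and bars of 1 SD, on axes that start at 0. Fcrls and Golm1 do not overlap between ages, while in Cst3 and Tmem119 mouse 23C is lowest of the young (3906 and 1027 CPM) and 3posI lowest of the old (3281 and 850.3 CPM).

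Golm1, a Golgi membrane protein (chr13:59634626-59675811, minus strand), was the other gene without overlap. It had 714.5 (14C), 797.7 (18C), 650.7 (23C) and 802.0 CPM (29C) in young mice and 622.4 (2posI), 255.9 (3posI) and 587.1 CPM (4posI) in old mice. The highest old library was close under the lowest young one. The old mean was 1.52-fold lower, a log2 difference of -0.60 ± 0.29 (adjusted p = 0.301, edgeR). Golm1 shares 1297 of its 4424 exon bases with Naa35 on the opposite strand, and the libraries are non-stranded. Its expected counts were whole numbers in all 7 libraries, without the fractions that reads divided between genes leave. Whole numbers cannot show that no read of Naa35 was counted for Golm1. Crybb1, a beta-crystallin, was counted at 152.8 to 158.7 CPM in 3 young mice, at 61.5 CPM in 23C, at 157.0 and 145.2 CPM in 2posI and 4posI, and at 69.9 CPM in 3posI.

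Promoter windows of 250 bases before to 50 after the RefSeq start site (build GRCm38.p6) were at hand for 22 of the 33 genes, as 30 windows. They were searched on both strands for the core of the PU.1 site, GAGGAAG, and for an interferon response element (GAAA, then any 2 bases, then GAAA). For MEF2 a loose pattern was used (CTA, then any 4 bases, then TAG). It leaves the 4 middle bases open, so a match is not by itself a MEF2 site. PU.1 and MEF2 are transcription factors of microglia. The PU.1 core was found in 5 of the 30 windows (16.7%), those of 3 genes, against 13.6% of all 32851 windows. The loose MEF2 pattern, which reads the same on both strands, was in 1 window (3.3% against 3.69%), and the interferon element in 0 of 30, against 3.44% of all windows. The matches are shown in capitals within 30 bases on the strand of the gene, because Fcrls and Slco2b1 are among the genes described above with lower means in old mice. They are a description of letters and say nothing of binding. The Fcrls match is at chr3:87263650-87263679 (minus strand). It lies before the RefSeq start site of its window but inside the gene as GENCODE places it (chr3:87250758-87263738). Those of Slco2b1, each at a start site of its own, are at chr7:99696017-99696046, inside the gene, and chr7:99711316-99711345 (minus strand), and those of Frmd4a at chr2:4017658-4017687 and chr2:4559762-4559791 (plus strand). The match of Bank1 to the loose MEF2 pattern is at chr3:136326092-136326121 (minus strand). For Golm1, the other gene without overlap between ages, none of the 3 motifs was in the window, and 200 bases before its start site (chr13:59675835-59676034, minus strand) are given without capitals.
Fcrls: aagtctgtaaaGAGGAAGgacgtttgcttt
Slco2b1, inner start site: gaggggagcttGAGGAAGcctgtattcatt
Slco2b1, outermost start site: agtccatgaggGAGGAAGtgactcatcttc
Frmd4a, outermost start site: aggGAGGAAGggagggaggGAGGAAGggag
Frmd4a, inner start site: gcactcgagggGAGGAAGcgctgctcagcc
Bank1: ccagcaaggcCTAACCCTAGccttgcggcc
Golm1: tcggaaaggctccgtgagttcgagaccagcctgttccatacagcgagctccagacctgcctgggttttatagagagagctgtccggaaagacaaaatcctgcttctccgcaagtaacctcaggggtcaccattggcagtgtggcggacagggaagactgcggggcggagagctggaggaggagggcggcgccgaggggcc

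Of the 7 regulators of membrane shape, actin and GTPases, 5 had a lower mean in old mice. Rhob, a small GTPase of endosomes (chr12:8497661-8500009), had 685.3 (14C), 841.1 (18C), 479.9 (23C) and 463.7 CPM (29C) in young mice and 357.7 (2posI), 197.1 (3posI) and 539.3 CPM (4posI) in old mice. Here 4posI was inside the young range and both other old mice were below it. The old mean was 1.69-fold lower, a log2 difference of -0.76 ± 0.35 (adjusted p = 0.282, edgeR). Fscn1, fascin, which bundles actin filaments, had 183.5, 261.2, 93.3 and 174.5 CPM in young mice 14C, 18C, 23C and 29C and 117.3, 52.1 and 152.8 CPM in old mice 2posI, 3posI and 4posI. Without 23C all old values would lie under all young ones, and with it the log2 fold change was -0.73 ± 0.41 (adjusted p = 0.370).

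The remaining genes of this group differed less. Bin1, amphiphysin 2, which bends membranes, had a log2 fold change of -0.22, Frmd4a, a FERM domain scaffold, of -0.18 and Arhgap5 of 0.25. In Arhgap5, 2posI and 4posI (118.1 and 115.9 CPM) were above and 3posI (36.0 CPM) below the whole young range of 42.0 to 111.6 CPM. Abi3, a subunit of actin-regulating WAVE complexes, and Adap2, a GTPase-activating protein for Arf6, were nearly level between ages, with log2 fold changes of -0.02 ± 0.18 and 0.05 ± 0.15. All 3 old libraries of both genes were within the young range. In Adap2, 3posI was at 0.846 of the mean of the other old mice, the nearest among the 33 genes.

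The 4 genes of signalling and transcription all had a higher mean in old mice. Pmepa1, an inhibitor of TGF-beta signalling that TGF-beta itself induces (chr2:173224458-173276533), was counted at 82.5 (14C), 95.5 (18C), 98.0 (23C) and 105.0 CPM (29C) in young mice and at 162.2 (2posI), 98.6 (3posI) and 161.5 CPM (4posI) in old mice. Mice 2posI and 4posI were above every young mouse and 3posI was within their range. The old mean was 1.48-fold higher, a log2 difference of 0.56 ± 0.19 (edgeR, unadjusted p = 0.0152, adjusted p = 0.167). Nrip1, the nuclear receptor corepressor RIP140, had a log2 fold change of 0.09, Sall3 of 0.14 and Bank1 of 0.15. The 2 lipid enzymes were near 0, Hpgd, which inactivates prostaglandins, at -0.09 ± 0.41 and Lpcat2, an acyltransferase that makes platelet-activating factor, at -0.08 ± 0.31.

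The spread within each age was larger for most members than the difference between ages. Old mouse 3posI was below both other old mice in 33 of 33 genes, whereas this was so for 34.5% of all genes tested. Relative to the mean of 2posI and 4posI its values had a median ratio of 0.397, from 0.149 in Upk1b to 0.846 in Adap2. It was the lowest of all 7 libraries in 25 of the 33 genes, against 20.3% of all genes. Young mouse 23C was below the other 3 young mice in 27 of 33 genes, against 30.9% of all genes, with a median ratio of 0.558 to their mean. That ratio ran from 0.175, also in Upk1b, to 1.10 in Fcrls. Young mouse 18C was the highest young library in 25 of 33 genes, against 28.7% of all genes. The 33 genes together took 2.60% (14C), 3.51% (18C), 1.88% (23C) and 2.67% (29C) of the counts in young mice, and 2.90% (2posI), 1.10% (3posI) and 2.90% (4posI) in old mice. Both 2posI and 4posI were thus within the young range and 3posI was below it. These shares rest mainly on Cst3 and the other abundant members.

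**Figure D3:**
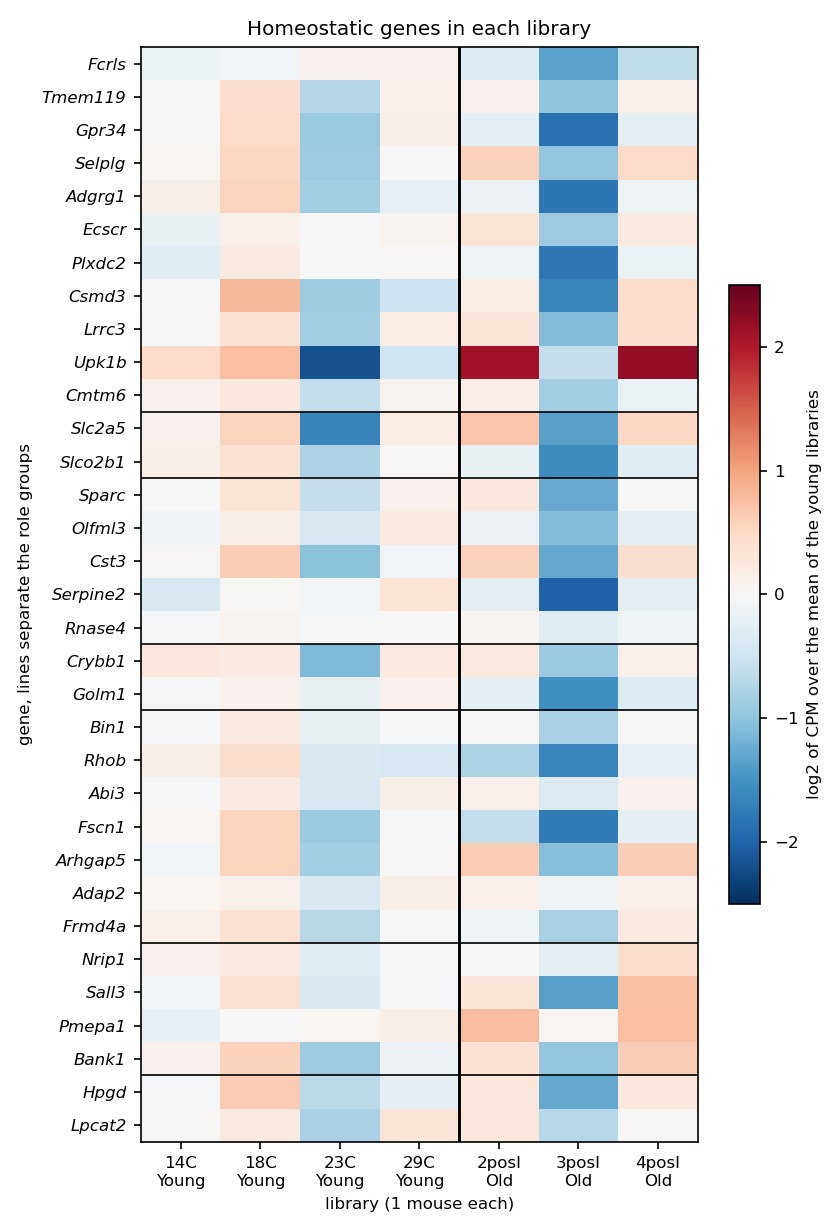
Log2 of the CPM of each homeostatic gene (rows, grouped by role) over the mean of the 4 young libraries, in each of the 7 libraries (columns). Mouse 3posI is below both other old mice in all 33 rows and mouse 23C below the other young mice in 27, while the columns of 2posI and 4posI are near the young level in most rows.

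Genes of other cell types were looked at in the same libraries. In 3posI all 8 monocyte markers were above both other old mice, among them Chil3 at 1426 CPM, against 7.76 to 68.9 CPM in the other 6 mice, and Ccr2, the chemokine receptor of inflammatory monocytes, at 230.9 CPM, against 2.07 to 19.3 CPM. Of the 10 markers of border-associated macrophages, 7 were higher in 3posI than in both other old mice. None of the 8 monocyte and 10 border macrophage markers was at 0 in any library. In 23C, by contrast, the monocyte markers summed to 215.8 CPM, inside the range of the other young mice (183.5 to 482.2 CPM), while the 33 homeostatic genes summed to 19501 CPM, against 27169 to 35570 CPM in the other young mice. The 26 genes of disease-associated microglia summed to 160000 CPM in 23C and 160700 CPM in 3posI, against 100100 to 142900 CPM in the other 5. These sums are carried by a few abundant genes, such as Apoe, at 40040 CPM in 3posI. Gene by gene, 14 of the 26 were lower and 9 higher in 3posI than in both other old mice, and 14 were higher and 7 lower in 23C than in the other young mice. Mouse 23C was also the highest young library in 7 of 8 astrocyte markers, 5 of 6 markers of pericytes and smooth muscle, 5 of 5 of oligodendrocyte precursors and 5 of 8 of T cells. Gfap, the filament protein of astrocytes, was at 61.1 CPM in 23C, against 6.82 to 18.6 CPM in the other young mice. The summed ranges over the 4 young mice were 115.7 to 161.5 CPM for astrocytes, 8.01 to 37.5 CPM for pericytes and smooth muscle, 39.4 to 83.0 CPM for oligodendrocyte precursors and 1.85 to 11.0 CPM for T cells, with the highest sum in 23C each time. Old mouse 2posI was above 23C for astrocytes (219.0 CPM), pericytes and smooth muscle (38.9 CPM) and T cells (12.4 CPM). For oligodendrocyte precursors it was lower (27.1 CPM). The 33 homeostatic genes nevertheless summed to 31622 CPM in 2posI. The T cell sum of 23C was mostly Cd4, at 10.2 CPM. In that library Cd3d, Cd3e and Cd8a were near the floor, at 0.0392 CPM or less, and Cd3g and Trbc2 were at 0. The part of other cell types and of activation in the low values of 3posI and of 23C was not tested.

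**Figure D4:**
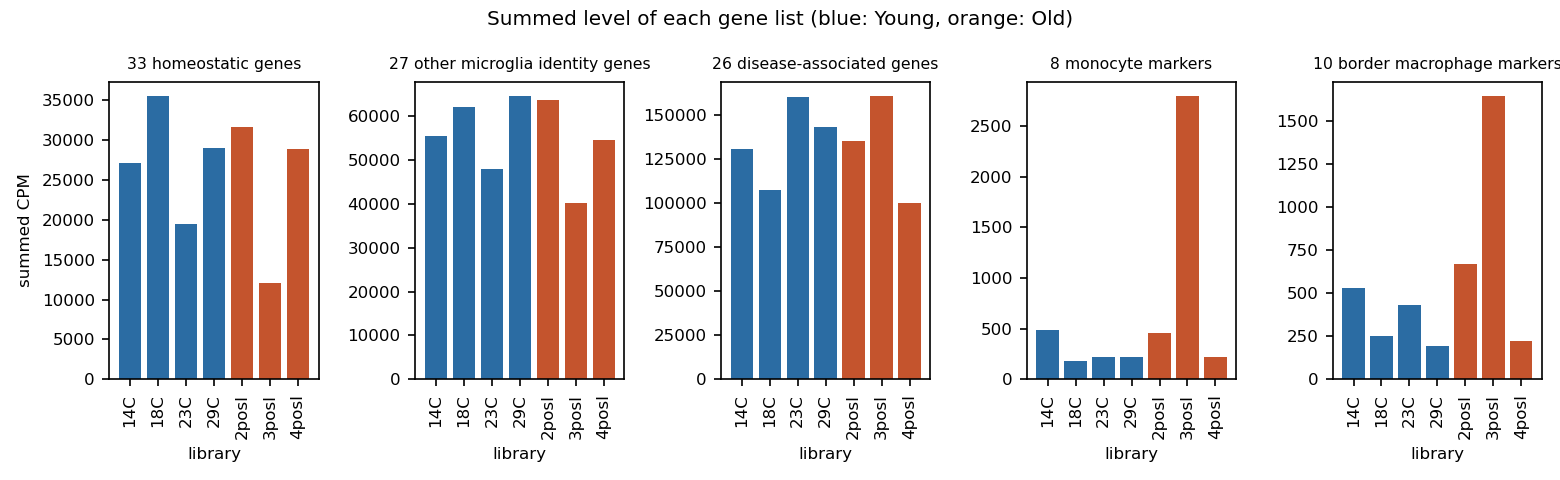
Summed TMM-scaled CPM of the 33 homeostatic genes and of 4 other gene lists in each library (blue young, orange old), on axes that start at 0. The homeostatic sum is lowest in 3posI (12085 CPM) and 23C (19501 CPM), and 3posI alone stands out in the monocyte and border macrophage markers.

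Leaving out 3posI changed the direction of many members. Without it the median log2 fold change was 0.13 and only 10 of 32 members were below 0, where all 7 libraries gave -0.09 and 21. One gene passed, Pmepa1, at 0.76 ± 0.13 on the log2 scale (adjusted p = 0.0448, edgeR), among 157 genes called in all (0.894%). The ages then did not overlap in 6 of the 32 members, against 28.6% of all genes. Fcrls and Golm1 remained below the young mice, with log2 fold changes of -0.48 ± 0.19 (adjusted p = 0.248) and -0.29 ± 0.16 (adjusted p = 0.370). Upk1b (2.15), Pmepa1 (0.76), Arhgap5 (0.63) and Ecscr (0.27) were higher in both old mice than in all young ones. Without 23C instead, the median moved the other way, to -0.27, and 27 of 32 members were below 0.

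When both low libraries were left out, a choice made after the values were seen, 2posI and 4posI were compared with 14C, 18C and 29C. The median log2 fold change was -0.02, with 17 of 32 members below 0. The ages did not overlap in 9 of these 32 members, against 37% of all genes, and they did not overlap in Gpr34 on chromosome X either, which was lower in old mice. Of the 9, Fcrls, Golm1, Slco2b1, Olfml3 and Fscn1 were lower and Upk1b, Pmepa1, Arhgap5 and Ecscr higher in old mice. Upk1b passed at 1.82 ± 0.31 on the log2 scale (adjusted p = 0.0493, edgeR), and Pmepa1, at 0.78 ± 0.14, was just above the threshold (adjusted p = 0.0505). Over all genes 169 passed (0.962%). The signs of Fcrls, Golm1, Rhob, Fscn1, Serpine2, Slco2b1, Olfml3, Plxdc2, Adgrg1, Gpr34 and Rnase4 (lower) and of Upk1b, Pmepa1 and Arhgap5 (higher) were the same whichever single library was left out. Their sizes were not, with log2 fold changes from -0.94 to -0.48 in Fcrls, -0.81 to -0.29 in Golm1, -1.16 to -0.46 in Rhob, -1.08 to -0.40 in Fscn1 and -0.88 to -0.24 in Serpine2. They ran from -0.80 to -0.24 in Slco2b1, -0.61 to -0.20 in Olfml3, -0.76 to -0.14 in Plxdc2, -0.75 to -0.13 in Adgrg1, -0.85 to -0.24 in Gpr34 and -0.20 to -0.012 in Rnase4. For the genes with higher means they ran from 1.30 to 2.15 in Upk1b, 0.45 to 0.76 in Pmepa1 and 0.0043 to 0.63 in Arhgap5.

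**Figure D5:**
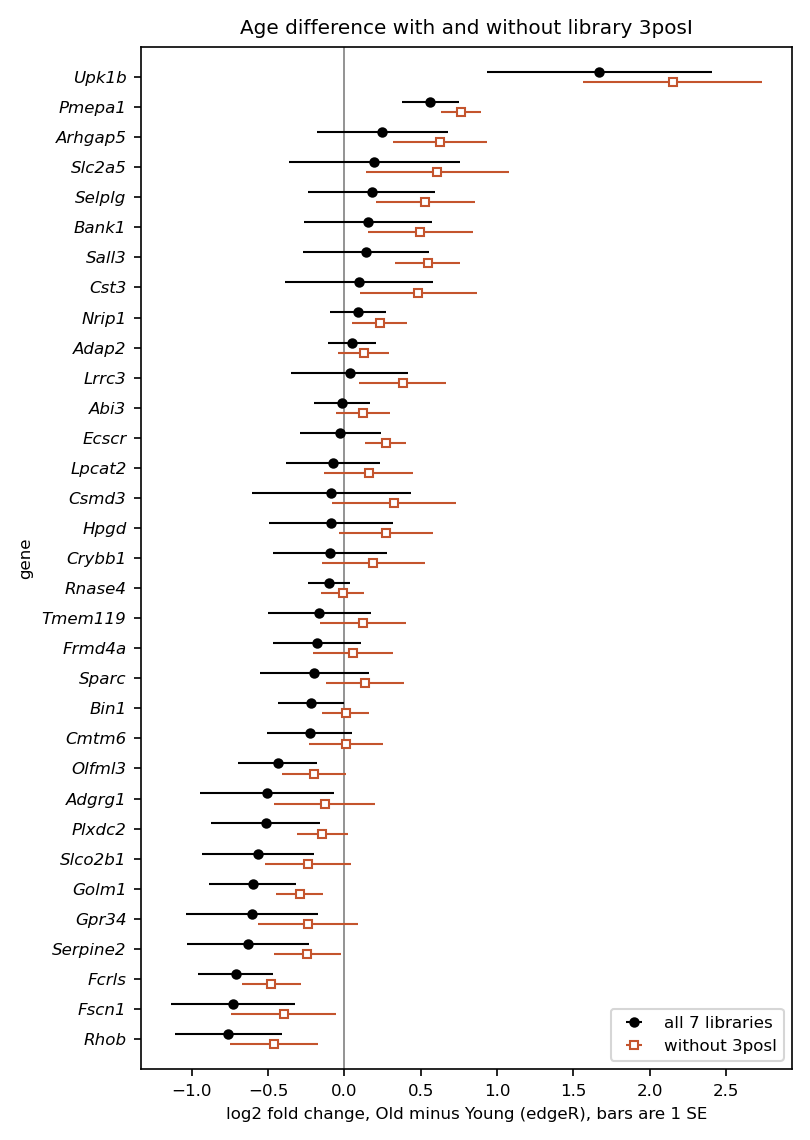
Log2 fold change of old minus young mice (edgeR) for each homeostatic gene with all 7 libraries (black circles) and without old mouse 3posI (open squares), with bars of 1 SE. Without 3posI every estimate moves to the right. Those of 10 of the 32 autosomal members, among them Fcrls, Golm1 and Rhob, and that of Gpr34 stay below 0.

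A further 27 genes of microglia identity outside the 33 were compared as the list most like it. None passed by edgeR, 20 were below 0, and the median log2 fold change was -0.13, which became 0.03 without 3posI. Mouse 3posI was lowest of the old in 23 and 23C lowest of the young in 22 of these 27 genes, a pattern close to that of the 33. The TGF-beta receptor Tgfbr2 had the smallest p, with 412.7, 538.5, 425.3 and 448.0 CPM in young mice 14C, 18C, 23C and 29C and 313.0, 272.5 and 355.8 CPM in old mice 2posI, 3posI and 4posI. The ages did not overlap, and 3posI was not apart from the other old mice (log2 fold change -0.54 ± 0.15, adjusted p = 0.130). Csf1r, the receptor that microglia depend on for survival, had a log2 fold change of -0.63 ± 0.29 (adjusted p = 0.288). Ctss, a lysosomal protease, had 0.49 ± 0.23 (adjusted p = 0.294) and Itgam, which encodes CD11b, -0.59 ± 0.28 (adjusted p = 0.298).

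Since TGF-beta maintains the homeostatic state, 14 genes of that pathway were examined as well. None passed by edgeR, 7 were below and 7 above 0, and in 5 of the 14 the ages did not overlap, where 17.7% of all genes did not. Without 3posI 1 of the 14 passed, Smurf1, a ubiquitin ligase (log2 fold change 0.93, adjusted p = 0.0403). The ligand Tgfb1 was at 19.5 to 36.9 CPM in young and 10.0 to 15.5 CPM in old mice (log2 fold change -1.15 ± 0.26, adjusted p = 0.0778). The repressor Ski was at 111.8 to 134.3 CPM in young and 170.1 to 209.5 CPM in old mice (0.58 ± 0.13, adjusted p = 0.0798), and Smurf2, a related ubiquitin ligase that acts on receptors and SMAD proteins, at 10.0 to 15.1 and 20.8 to 22.6 CPM (0.70 ± 0.17, adjusted p = 0.0895). Over the 14 genes, 3posI was below both other old mice in 7, among them the receptor Tgfbr1 at 200.1 CPM, against 470.9 and 473.7 CPM. Of the 26 disease-associated genes, 0 passed by edgeR, with 13 below and 13 above 0. Those with the smallest p were Itgax, which encodes CD11c (log2 fold change 1.00 ± 0.19, adjusted p = 0.0565), the growth factor Igf1 (-1.93 ± 0.39, adjusted p = 0.0618), the lectin Clec7a (0.61 ± 0.14, adjusted p = 0.0847) and the cytokine Csf1 (-1.11 ± 0.32, adjusted p = 0.132).

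For every gene and library the files also give an effective length, the mean length of its transcripts weighted by their estimated abundance. It is a readout of transcript usage as RSEM estimated it, and the counts above do not enter it as such. It was constant in 6 members and varied in 26 of the 32 tested. In 13 of these 26 (50%) the ages did not overlap, 7 with longer and 6 with shorter transcripts in old mice, against 25% of genes whose length varied and whose mean TPM was at least that of the lowest member. That floor was 3.77 TPM (Bank1), and most members were well above it. The background was not matched to the members in abundance, so the shares are not like for like. In Fcrls it was 1836 to 1901 bases in young and 1976 to 2000.1 bases in old mice, 6.01% longer on average, and 3posI (2000.1 bases) was close to 4posI (1997 bases). In Csmd3 it was 2515 to 2894 bases in young and 3139 to 3804 bases in old mice, 27.9% longer. In Adgrg1 it was 2865 to 3174 bases in young and 3273 to 3452 bases in old mice, and Cst3 was 5.61% longer in old mice. The reverse was seen in Plxdc2, with 2898 to 2961 bases in young and 2560 to 2699 bases in old mice, and in Arhgap5, with 4962 to 5233 against 4757 to 4889 bases. In the other 7 members without overlap the difference was smaller than in these 6. Upk1b, Rhob, Cmtm6, Lrrc3, Sall3 and Hpgd had the same length in every library. No test was made of these lengths, which depend on how reads were divided among transcripts.

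Counts of some members are less certain for reasons of annotation. Within a tolerance of 0.001, the expected counts were whole numbers in all 7 libraries for most members and in none for Slco2b1, Rnase4, Frmd4a, Adap2, Lpcat2, Abi3, Ecscr and Lrrc3, which means that reads were shared with other genes. Rnase4 shares 219 of its 1637 exon bases with Ang on the same strand. Abi3 shares exon bases with Zfp652, Phospho1 and Gngt2 on the opposite strand, and Slco2b1, Lpcat2 and Adap2 share some with antisense genes. In non-stranded libraries reads of such pairs cannot be told apart.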

How the data were processed

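RNA of sorted microglia was amplified with Smart-seq2 (non-stranded). The authors trimmed reads, checked them with FastQC 0.11.5 and mapped them to GRCm38 with STAR, and RSEM gave the deposited expected counts, TPM and FPKM on GENCODE m15 (for STAR and RSEM the version was not given in the sources used here). No scaling between libraries was applied to the deposited expected counts, as the totals show. The TPM and FPKM values the authors deposited are scaled within a library and by gene length. TPM served for levels and FPKM was not used. The effective length of the authors' files is a score in bases.

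Expected counts were rounded. Autosomal genes whose expected count exceeded 10 in 1 or more libraries were tested (17559) in R 4.3.3 with edgeR 4.0.16 (TMM, quasi-likelihood test, age as the only term, Benjamini-Hochberg adjustment over all genes). The biological coefficient of variation was 37.2%. The test itself gives no SE, so the edgeR SE was the size of the log2 fold change divided by the square root of the F statistic. Coordinates come from GENCODE vM21, which holds 50462 of the 50686 identifiers, and promoter sequences from RefSeq. The 33 members, other lists and tests were chosen with earlier results of these data known. Full values are given for members past the threshold or without overlap, those with the smallest p up to 12, and the 5 highest in TPM; in other lists for up to 4 genes with the smallest p. The p-values set the difference between ages against the spread between mice. The script was tested on simulated data. As alternatives served limma 3.58.1 (voom, voom with quality weights, and log2(TPM + 1)), DESeq2 1.42.0, other scalings and filters, removal of length and GC trends, and each library left out.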

Additional observations from a re-analysis of the deposited data

Results flagged for a closer look

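In Crybb1, a beta-crystallin, young mouse 23C (61.5 CPM) was far from the other 3 young mice (152.8 to 158.7 CPM). The gap from 23C to the nearest of them was 0.939 of the whole range of the young group, above Dixon's critical value for 4 samples. Of the 33 genes, 1 was singled out in this way, where chance gives about 1 in 20. In the old group, which at 3 libraries was too small for this rule, 3posI was low for the same gene (69.9 CPM, against 157.0 and 145.2 CPM).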

How the results depend on the processing

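The finding that 0 members passed held under all edgeR and limma settings with the 7 libraries. DESeq2 called 1 (Fcrls), against 9.07% of the genes to which it gave an adjusted p. By edgeR 1 passed without 3posI (Pmepa1, against 0.894% of all genes) or without both 3posI and 23C (Upk1b, against 0.962%). The number without overlap was 2, against 17.7% of all genes. It was 1 with the length trend removed (against 16.8%) and 9 without both libraries (against 37%). The count over all genes was 318 by limma-voom with quality weights, 1399 by DESeq2 and 288 without a filter. With 1 library left out it ran from 1 (without 14C, 18C or 2posI) to 157 (without 3posI), members called from 0 to 1, and members without overlap from 2 to 6. These last, counted over the 32 autosomal members, were 4 without 14C, against 20.4% of all genes, and 5 without 23C, against 25.4%. They were 6 without 3posI, against 28.6%. Gpr34 on chromosome X did not overlap either without 23C. Members that changed sign had log2 fold changes from -0.23 (Cmtm6) to 0.20 (Slc2a5) in the main fit, and none passed. Some moved further from 0 with 1 library left out, as listed below. Log2 fold changes were, with the GC trend removed, 2.1e-05 for Tmem119, 0.11 for Crybb1 and 0.16 for Abi3. By limma-voom with quality weights they were 0.11 for Ecscr, 0.0076 for Csmd3, 0.028 for Abi3 and 0.0066 for Hpgd, and without weights -0.046 for Lrrc3 and -0.066 for Sall3. With the length trend removed they were 0.042 for Csmd3, -0.080 for Cst3, -0.070 for Sall3 and 0.032 for Lpcat2. With the effective length offset Nrip1 had -0.067. On TPM they were -0.13 for Lrrc3, -0.0061 for Slc2a5, -0.16 for Cst3, -0.037 for Adap2, -0.15 for Nrip1 and -0.11 for Sall3. Without 3posI and 23C they were 0.25 for Ecscr, 0.12 for Csmd3, 0.015 for Abi3 and 0.10 for Hpgd.
With 1 library left out, the log2 fold change ran in Abi3 from -0.12 to 0.12, in Adap2 from -0.056 to 0.13, in Bank1 from -0.15 to 0.50, in Bin1 from -0.35 to 0.0079, in Cmtm6 from -0.47 to 0.0089, in Crybb1 from -0.33 to 0.19, in Csmd3 from -0.47 to 0.34. It ran in Cst3 from -0.22 to 0.48, in Ecscr from -0.23 to 0.27, in Frmd4a from -0.43 to 0.057, in Hpgd from -0.31 to 0.27, in Lpcat2 from -0.30 to 0.16, in Lrrc3 from -0.22 to 0.38, in Nrip1 from -0.13 to 0.23. It also ran in Sall3 from -0.29 to 0.55, in Selplg from -0.074 to 0.53, in Slc2a5 from -0.14 to 0.61, in Sparc from -0.50 to 0.14 and in Tmem119 from -0.35 to 0.12. The cause of these moves was not tested. No paired analysis was possible because the labels give the mice codes and no shared replicate numbers. The lowest count of a member in a library was 143 (Upk1b), and precision is limited by the number of libraries, 3 old and 4 young.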
